A study of Mus musculus with 11 samples.

Results

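The 17-beta-hydroxysteroid dehydrogenases are the enzymes that exchange a keto group and a hydroxyl group at carbon 17 of sex steroids. Members whose main direction is reduction turn weak hormones into strong ones, as in the step from androstenedione to testosterone or from estrone to estradiol, and members whose main direction is oxidation do the reverse. Several enzymes that carry the family name act mostly on fatty acids, amino acid breakdown products or retinoids. In the mouse the adrenal cortex makes corticosterone and aldosterone and little androgen, because Cyp17a1, the enzyme that makes androgen precursors, is low there. The 9 genes described here are Hsd17b1, Hsd17b2, Hsd17b3, Hsd17b4, Hsd17b6, Hsd17b10, Hsd17b11, Hsd17b12 and Hsd17b14. They were chosen by symbol from the 23337 genes of the count table, and all 9 were found there.

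RNA of whole adrenal glands was sequenced from male mice of the athymic nude strain Hsd:Athymic Nude-Foxn1nu, which lack a working thymus through the Foxn1nu allele. All animals, controls included, carried cells of VCaP, a human prostate cancer line, given in week 0 of the study when the mice were about 5 to 6 weeks old. They were allocated at week 7 to an intact group (INTACT, testes in place, 5 samples) or an orchiectomized group (ORX, testes removed, 6 samples) and killed at week 15. The comparison of ORX with INTACT asks how the gland's expression differs with and without the testes. Whether each sample is a mouse of its own is not said in the labels. The p-values therefore rest on the spread among these 11 samples, part of which may be technical. Total gene counts ranged from 11368447 to 15029582 per library.

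Markers of the labelled tissue were present. The summed level of 5 genes of the zona fasciculata, the glucocorticoid-producing cortex, ran from 20161 to 55460 CPM (counts scaled by library size) in INTACT and from 40274 to 59365 CPM in ORX. Of these genes 2 rose and 0 fell by edgeR, and 2 rose and 1 fell by DESeq2 and by limma voom. At an unadjusted p under 0.05, 3 were higher and 1, Akr1b7, was lower (5505 to 1127 CPM, log2 -2.29). Of other cell types, 3 markers of the X-zone, an inner cortical layer that regresses in male mice, summed to 28.7 to 40.2 CPM in INTACT and 831 to 2911 CPM in ORX. Among zona glomerulosa markers 3 of 7 fell by each of edgeR, DESeq2 and limma voom. Among adrenal medulla markers 2 of 10 fell by edgeR, 5 by DESeq2 and 7 by limma voom (7 lower at an unadjusted p under 0.05), with sums of 11898 to 30493 CPM in INTACT and 6353 to 16638 CPM in ORX. Of 5 markers each of endothelium, macrophages and the capsule with its stroma, 0 were called by edgeR (at an unadjusted p under 0.05, 3 lower, 0 and 1 lower; by DESeq2 and by limma voom, 1 lower, 0 and 1 lower). Fat markers summed to 3346 to 9391 CPM and 2137 to 7845 CPM, and kidney markers stayed at or below 0.905 CPM in every library, with Umod and Nphs1 at 0 counts in all of them. ORX 6 stood apart from its group, with the genes of the lowest length decile at a median of 0.73 and those of the highest at -0.67 against the other ORX libraries (difference in log2 CPM).

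Expression of the family was carried by 4 genes. Levels are compared between genes as CPM per kilobase of exon, with exon lengths from the GENCODE M21 annotation of GRCm38 (mm10), because longer transcripts collect more reads. Hsd17b12, the ketoacyl reductase of fatty acid elongation in the endoplasmic reticulum, was at 113 ± 31.8 CPM per kilobase in INTACT and 92.6 ± 25.3 in ORX (SD, n = 5 and 6). Hsd17b10, a mitochondrial dehydrogenase of isoleucine breakdown that is also a subunit of mitochondrial RNase P, was at 80.6 ± 10.4 and 88.1 ± 21.7. Hsd17b4, the peroxisomal bifunctional enzyme of fatty acid beta-oxidation, was at 55.6 ± 10.7 and 56.1 ± 2.98. Hsd17b11, a dehydrogenase found on lipid droplets, was at 20.3 ± 2.22 and 23.5 ± 1.06. These 4 genes together made up 99.0% ± 0.447 of the family's summed level per kilobase in INTACT and 97.7% ± 1.09 in ORX.

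The remaining 5 genes, which include the members best known for making or inactivating sex steroids, were far lower. Hsd17b3 was at 1.06 ± 1.04 CPM per kilobase in INTACT and 2.63 ± 2.03 in ORX, Hsd17b1 at 1.08 ± 0.431 and 2.53 ± 0.662, and Hsd17b14 at 0.569 ± 0.407 and 0.569 ± 0.573. Hsd17b6 and Hsd17b2 had too few counts to pass the filter on low counts. The order Hsd17b10, Hsd17b4, Hsd17b11 and then any of the low genes held in 11 of 11 libraries. Hsd17b12 lay above Hsd17b10 in 6 libraries (4 INTACT and 2 ORX), and Hsd17b3 above Hsd17b1 in 4, so neither of these neighbours differed beyond its spread. Hsd17b1 lay above Hsd17b14 in 8 of 11 libraries. The order of the 9 genes by mean level was the same with the length of the longest transcript.

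**Figure D1:**
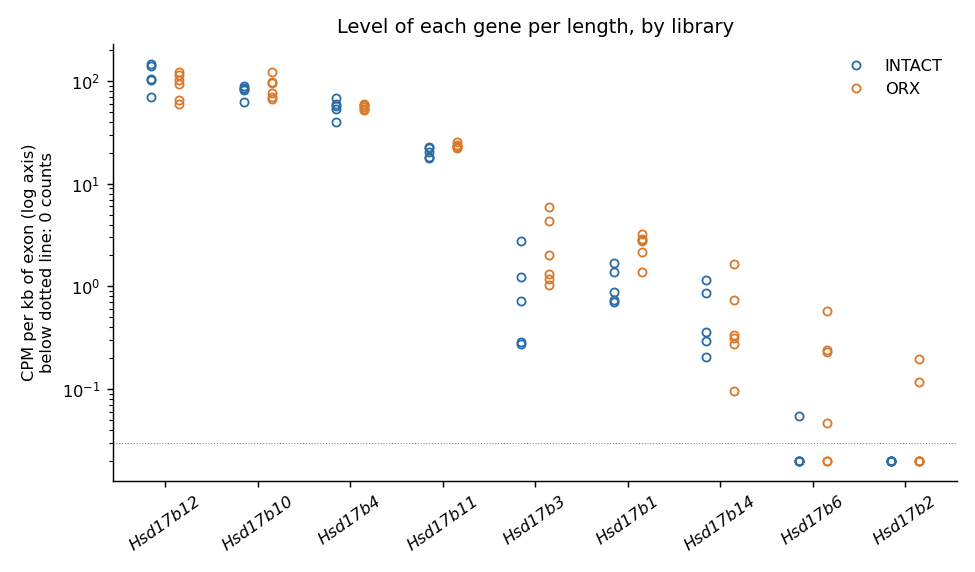
Each circle is 1 library (blue INTACT, n = 5; orange ORX, n = 6), with the level in CPM per kilobase of exon on a log axis for the 9 genes, ordered by their mean over all libraries; libraries with 0 counts are drawn below the dotted line. Hsd17b12, Hsd17b10, Hsd17b4 and Hsd17b11 lie above every other member in every library.

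In the comparison of ORX with INTACT, 1 of the 7 members tested rose, Hsd17b1, and 0 fell (quasi-likelihood test of edgeR, Benjamini-Hochberg adjusted over 14139 genes, adjusted p under 0.05). Over all tested genes 3.03% rose and 3.18% fell, 6.21% in all. At an unadjusted p under 0.05 the members' counts were also 1 higher and 0 lower. Of all tested genes 22.9% had an unadjusted p under 0.05, a share that also applies beside the unadjusted counts of the lists. DESeq2 and limma voom likewise called 1 member higher, Hsd17b1, and 0 lower (adjusted p = 0.00462 and 0.00747). Over all genes DESeq2 called 750 higher and 880 lower of 14130, and limma voom 961 and 1095 of 14139. The members' median log2 fold change was 0.13, against 0.01 for all tested genes, with 5 positive and 2 negative values. No member had all ORX libraries on one side of all INTACT libraries, which 5.28% of the tested genes had, 2.92% with ORX higher and 2.36% with ORX lower. In bulk tissue, fewer cells of a type and less RNA per cell cannot be told apart.

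**Figure D2:**
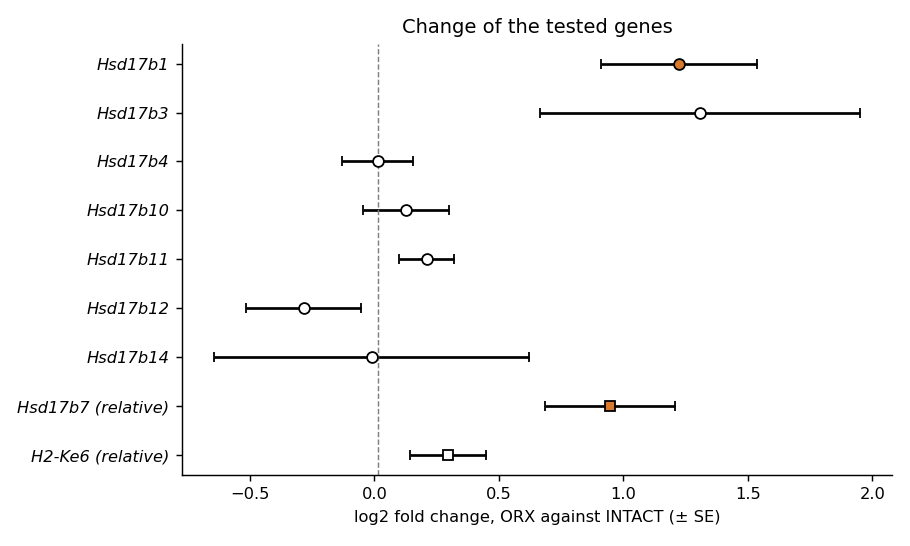
Points are log2 fold changes of ORX against INTACT with their standard errors (horizontal axis) for the 7 tested members (circles) and for Hsd17b7 and H2-Ke6, named relatives (squares); orange marks an adjusted p under 0.05, and the dashed line is the median of all tested genes, 0.01. Among the members Hsd17b1 passed at 1.22 ± 0.31, while Hsd17b3 had a like value of 1.31 with an error of 0.64 and did not pass.

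Hsd17b1 reduces estrone to estradiol and is known from the granulosa cells of the ovary. The gene lies on chromosome 11, 101078411 to 101080527, plus strand (GRCm38), with 1 annotated transcript of 6 exons and 1339 bases. Its counts in INTACT 1 to 5 were 13, 14, 34, 22 and 13, and in ORX 1 to 6 they were 40, 66, 25, 50, 48 and 49, a total of 374 reads over all libraries. Scaled to library size, it went from 1.44 ± 0.577 CPM in INTACT to 3.39 ± 0.887 CPM in ORX. A total of 5 ORX libraries lay above every INTACT library, and the exception was ORX 3 at 1.84 CPM, below INTACT 3 at 2.25 CPM. The rise was 2.34-fold (log2 1.22 ± 0.31 SE; edgeR adjusted p = 0.0363).

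The edgeR call of Hsd17b1 was close to the threshold. It was lost without any 1 of 8 libraries, INTACT 1, 2 or 5 or ORX 1, 2, 4, 5 or 6 (edgeR adjusted p 0.0157 to 0.0982 over the 11 libraries left out in turn), with log2 values of 1.10 to 1.26 in those 8 fits, and with an offset for transcript length (log2 1.09; edgeR adjusted p = 0.0502). Calls over all genes, 428 higher and 450 lower with all libraries, also dropped in these 8 fits, to 224 to 289 higher and 182 to 281 lower. The exception was the fit without ORX 6, with 424 and 447. The X-zone markers, of which 3 of 3 rose, moved with the same groups. Within ORX the X-zone sum and Hsd17b1 did not follow the same order: ORX 3 was lowest in both (831 CPM for the sum), but ORX 1 had the highest sum, 2911 CPM, with the next lowest Hsd17b1, 2.87 CPM, and ORX 6 had a sum of 913 CPM with Hsd17b1 at 3.69 CPM. Of 8 markers of granulosa and Sertoli cells, 5 were tested and 0 passed (edgeR; 1 higher at an unadjusted p under 0.05, by DESeq2 and by limma voom). Inha, Amhr2 and Foxl2 had positive log2 fold changes, and Amh and Sox9 negative ones. Their sums were 45.1 to 79.4 CPM in INTACT and 54.4 to 142 CPM in ORX, where ORX 3 at 96.9 CPM lay above ORX 1, ORX 2 and ORX 5. The largest part of these sums was 1 gene, Inha (41.5 ± 6.95 CPM in INTACT, 67.6 ± 19.5 CPM in ORX), so their order mostly follows that gene. The part of these cell types in the change of Hsd17b1 was not tested.

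The gene just upstream of Hsd17b1 on the same strand, Naglu, a lysosomal glucosaminidase gene, ends 738 bases before it and was far more abundant. Naglu also rose, from 59.0 ± 4.27 to 88.9 ± 16.5 CPM (edgeR, log2 0.59 ± 0.15, adjusted p = 0.0299). Of 10 tested neighbours within 100 kilobases, 1 passed by edgeR (Naglu), 1 by limma voom and 2 by DESeq2, and 3 were higher at an unadjusted p under 0.05. Hsd17b1 counts were 1.60% to 3.85% of the Naglu counts in INTACT and 2.98% to 4.57% in ORX. The log2 ratio of Hsd17b1 to Naglu within a library was 0.67 ± 0.26 (SE) higher in ORX (exact permutation test over samples, two-sided, p = 0.0260, 1 ratio chosen after its values were seen). No exon of any of the 9 members overlaps an exon of another gene in the annotation used.

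Hsd17b3, the testicular enzyme that reduces androstenedione to testosterone (chromosome 13, 64058266 to 64089230, minus strand), varied most widely among the reductive members. Its counts were 53, 20, 6, 12 and 5 in INTACT 1 to 5 and 20, 28, 22, 109, 35 and 79 in ORX 1 to 6. The levels were 1.47 ± 1.44 CPM in INTACT and 3.66 ± 2.83 CPM in ORX, and 2 ORX libraries, 4 and 6, lay above every INTACT library. INTACT 1 alone lay above the other 4 ORX libraries. The log2 fold change was 1.31 ± 0.64 and did not pass (edgeR adjusted p = 0.245), and it ranged from 0.88 without ORX 4 to 2.08 without INTACT 1.

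Of the 3 markers of Leydig cells, the testosterone-producing cells of the testis, Lhcgr and Cyp17a1 rose (edgeR; neither by limma voom) while Insl3 had 36 counts in each group. Their summed level was 2.98 to 19.6 CPM in INTACT and 2.80 to 166 CPM in ORX, lowest in ORX 1 and highest in ORX 6. Hsd17b3 in ORX 1 was likewise the lowest of its group, at 1.44 CPM. The highest Hsd17b3 value in INTACT, 3.86 CPM in INTACT 1, came with a Leydig sum of 5.76 CPM, below the 19.6 CPM of INTACT 2. The part of such cells in the values of Hsd17b3 was not tested.

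Hsd17b12 (chromosome 2, 94032689 to 94157964, minus strand) was the most abundant member by mean level. It had 252, 245, 339, 167 and 354 CPM in INTACT 1 to 5 and 244, 143, 276, 159, 225 and 292 CPM in ORX 1 to 6. The groups overlapped widely, at 271 ± 76.4 and 223 ± 60.9 CPM (edgeR, log2 -0.28 ± 0.23, adjusted p = 0.498). The spread within a group, a coefficient of variation of 28.2% in INTACT and 27.3% in ORX, was larger than the difference of the means. Its partners in elongation, 12 genes of the Elovl elongases, Hacd dehydratases and Tecr, had 0 calls (edgeR; 2 higher and 3 lower at an unadjusted p under 0.05; 1 lower by DESeq2 and 2 by limma voom) and a median log2 fold change of 0.09. The 3 libraries with the lowest sum over these genes, ORX 2 at 1665, INTACT 4 at 1833 and ORX 4 at 2025 CPM, were also the 3 with the lowest Hsd17b12.

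Counts of Hsd17b2 and Hsd17b6 were low or absent. Hsd17b2, which oxidises estradiol and testosterone (chromosome 8, 117701904 to 117759027, plus strand), had 0 counts in all 5 INTACT libraries, which allows a level of up to 0.0448 CPM over the group. In ORX it had 8 counts, 5 in ORX 4 and 3 in ORX 6. Pooled over the libraries, its ORX level was 2.21-fold the limit of 3 counts over the INTACT group. This value takes the 8 ORX counts as exact and rests on these 2 libraries, so it is not a lower bound on the difference. Hsd17b6, which oxidises reduced androgens and retinols (chromosome 10, 127990936 to 128007611, minus strand), had 1 count in INTACT, in INTACT 2, and 23 in ORX. Of these, 12 were in ORX 6, 5 each in ORX 1 and ORX 4, 1 in ORX 3 and 0 in ORX 2 and ORX 5. The ratio of the pooled counts was 19.1 (95% exact interval 3.10 to 786 for counting error alone). Neither gene passed the filter on low counts, and with no filter neither passed the test (edgeR adjusted p = 0.261 for Hsd17b2 and 0.122 for Hsd17b6).

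Liver genes were high in the libraries that held most counts of these low members, though not in those alone. The summed level of 5 liver markers, all detected (Alb, Apoa1, Ttr, Serpina1c and Fgb), was 1.92 to 51.4 CPM in INTACT and 2.47 to 249 CPM in ORX. It was highest in ORX 6 at 249, ORX 4 at 101, INTACT 1 at 51.4 and ORX 1 at 43.4 CPM. Of the 5 genes 0 passed the test between the groups (edgeR, DESeq2 and limma voom; 2 higher at an unadjusted p under 0.05; Alb, the albumin gene, at log2 2.81 ± 1.16, edgeR adjusted p = 0.167). Both libraries with Hsd17b2 counts were the 2 highest in liver markers, and all but 1 of the 23 ORX counts of Hsd17b6 were in ORX 6, 4 and 1. INTACT 1, the third highest in liver markers, had 0 counts of both Hsd17b2 and Hsd17b6. Hsd17b13, a lipid droplet enzyme of the liver outside the 9 members, had 18 counts in ORX 6, 15 in ORX 4, 6 in INTACT 1 and at most 3 in any other library. ORX 4, ORX 6 and INTACT 1 were also the 3 highest libraries of Hsd17b3. The part of liver RNA in these values was not tested.

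**Figure D3:**
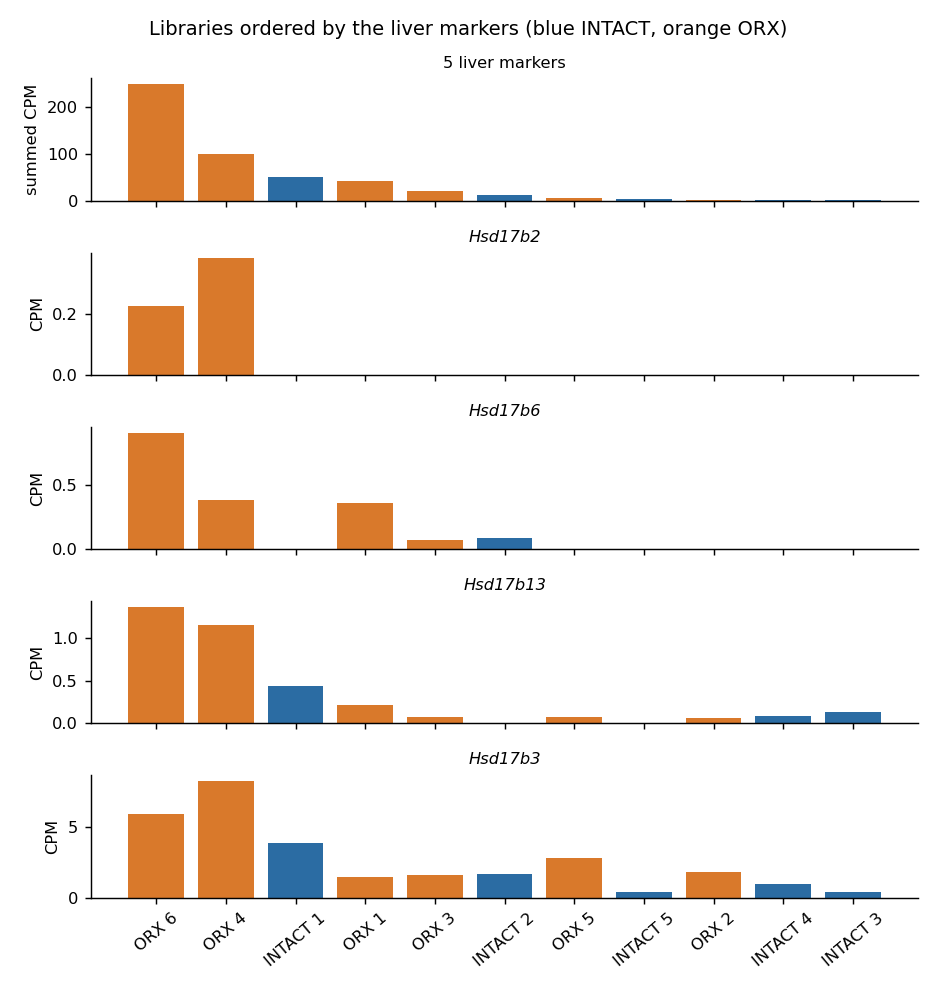
Bars are libraries (blue INTACT, orange ORX), ordered from left to right by the summed CPM of 5 liver markers, shown in the top panel, with the CPM of Hsd17b2, Hsd17b6, Hsd17b13 and Hsd17b3 below on linear axes. The libraries on the left, ORX 6, ORX 4 and INTACT 1, hold the highest Hsd17b13 and Hsd17b3 values, and Hsd17b2 has counts in ORX 6 and ORX 4 alone.

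Without INTACT 1, ORX 4 and ORX 6, a setting added after the liver values were seen, Hsd17b3 was at log2 1.16 (edgeR adjusted p = 0.268). Hsd17b1 was then at log2 1.03 and no longer passed (edgeR adjusted p = 0.204), with 8 libraries left in the fit. Calls over all genes also dropped, from 428 higher and 450 lower to 164 and 94. Hsd17b2 had 0 counts in all of the 8 libraries left, and Hsd17b6 had 5 in ORX 1 and 1 each in INTACT 2 and ORX 3.

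Hsd17b14 (chromosome 7, 45554893 to 45567752, plus strand), a dehydrogenase that uses NAD, was scattered in both groups. It had 2.33, 0.595, 0.729, 0.418 and 1.74 CPM in INTACT 1 to 5 and 0.646, 0.195, 3.39, 0.685, 0.561 and 1.51 CPM in ORX 1 to 6. The highest and the lowest value of all libraries were both in ORX, in ORX 3 and ORX 2, and the group means were 1.16 CPM in each (log2 -0.01 ± 0.63; edgeR adjusted p = 0.994). With this error a change in either direction was not detectable unless large. Its sign turned without any 1 of 6 libraries (log2 up to 0.40 without INTACT 1).

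Hsd17b11 (chromosome 5, 103989762 to 104021919, minus strand) was the steadiest member in ORX. Its level was 58.5, 72.9, 73.9, 67.1 and 59.4 CPM in INTACT 1 to 5 and 75.3, 76.4, 73.2, 74.7, 78.3 and 82.9 CPM in ORX 1 to 6. A total of 5 ORX libraries lay above every INTACT library, and ORX 3 lay just under INTACT 3. The difference was small, 66.4 ± 7.24 against 76.8 ± 3.47 CPM, a 1.16-fold value that did not pass (log2 0.21 ± 0.11; edgeR adjusted p = 0.276). Of 23 other genes of lipid droplets, 1 fell, Fitm2, a gene of droplet formation (78.9 ± 23.3 to 41.9 ± 10.8 CPM; log2 -0.91 ± 0.22; edgeR adjusted p = 0.0260), and 0 rose, with a median log2 fold change of -0.55. At an unadjusted p under 0.05, 8 droplet genes were lower and 0 higher, and the counts lower were 2 by DESeq2 and 4 by limma voom, with 0 higher by either. The fat markers, of which 0 of 6 passed by edgeR (0 at an unadjusted p under 0.05, 0 by DESeq2, 1 lower by limma voom), had a median of -0.60, and their part in the droplet list was not tested. Plin1 and Cidec stand in both lists.

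**Figure D4:**
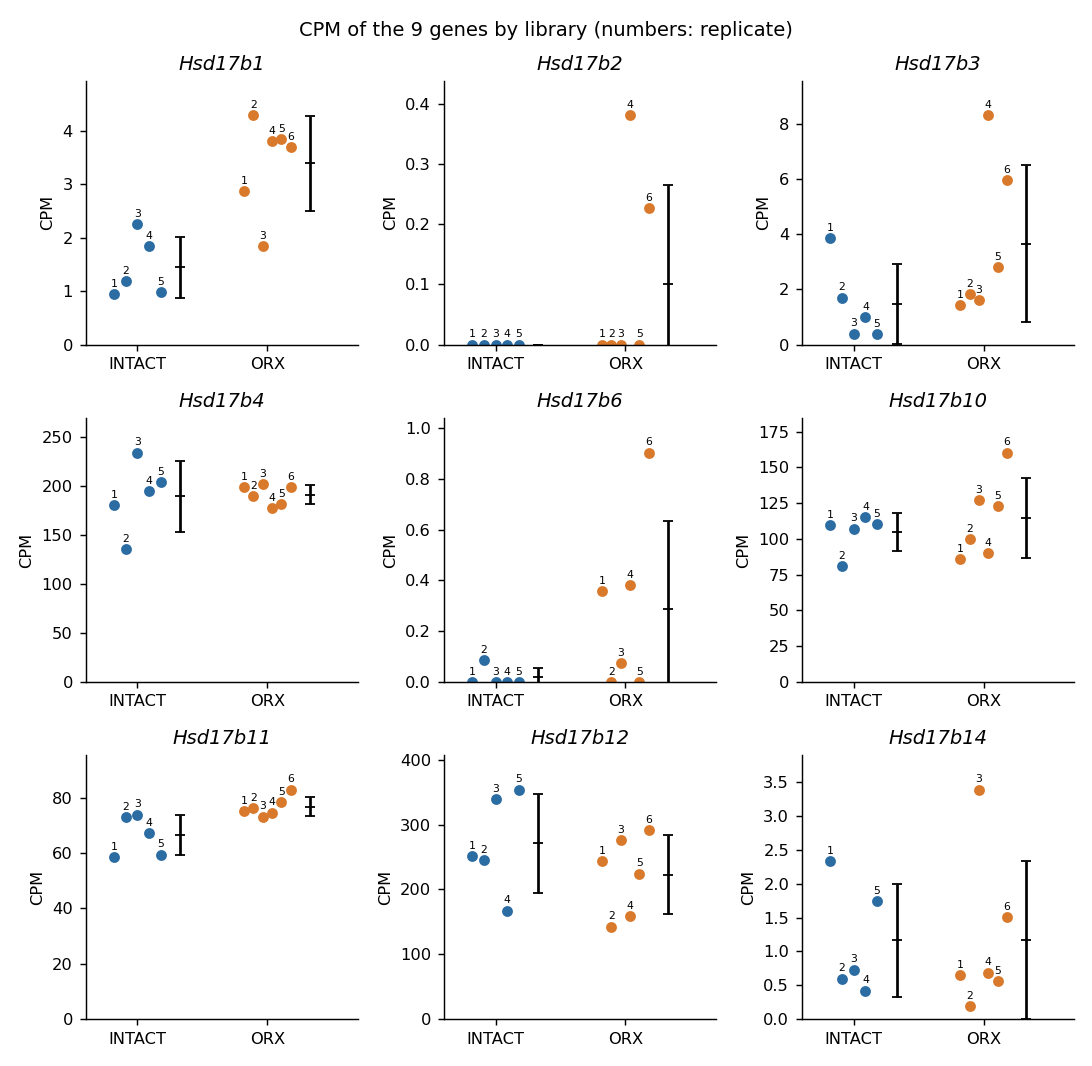
Each point is 1 library, labelled by its replicate number, in CPM (linear axes from 0, 1 panel per gene) for INTACT (blue) and ORX (orange), and a dash with whiskers beside them gives the group mean and SD, whiskers cut at 0. Hsd17b1 is higher in ORX with ORX 3 as the exception, Hsd17b2, Hsd17b3 and Hsd17b6 have their highest values in ORX 4 or ORX 6, and Hsd17b4 spreads more in INTACT than in ORX.

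Hsd17b4 (chromosome 18, 50128201 to 50196269, plus strand) did not pass, with group means close to each other (189 ± 36.3 and 191 ± 10.1 CPM; log2 0.01 ± 0.14; edgeR adjusted p = 0.971). Its levels were 180, 135, 234, 194 and 204 CPM in INTACT 1 to 5 and lay between 177 and 202 CPM in ORX, so that the ORX libraries lay inside the INTACT range. The coefficient of variation was 19.2% in INTACT and 5.31% in ORX, a contrast that was not tested. INTACT 2, the lowest, and INTACT 3, the highest, were also the INTACT extremes in the summed level of 19 peroxisomal beta-oxidation genes (1717 and 3305 CPM). The same 2 libraries were the INTACT extremes of the fat markers, at 3346 and 9391 CPM, whose part was not tested. The ORX libraries did not share an order. ORX 2 had the lowest peroxisomal sum of all libraries, 1654 CPM, with Hsd17b4 at 189 CPM. The highest ORX sum was in ORX 6 (2453 CPM) and the highest ORX value of Hsd17b4 in ORX 3 (202 CPM). In the peroxisomal list 0 of 18 tested genes were called by edgeR, with a median log2 fold change of -0.08. At an unadjusted p under 0.05, 2 were higher and 2 lower, and DESeq2 and limma voom each called 1 higher.

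Hsd17b10 (chromosome X, 152001845 to 152004442, plus strand) was at 110, 81.1, 107, 115 and 110 CPM in INTACT 1 to 5 and at 86.0, 99.6, 127, 90.1, 123 and 160 CPM in ORX 1 to 6. The groups overlapped, with INTACT 2 the lowest and ORX 6 the highest library (log2 0.13 ± 0.17; edgeR adjusted p = 0.703). Its transcript is among the shorter ones of the family, 1001 bases at the longest, and short transcripts were high in ORX 6. With the offset for transcript length its log2 fold change was -0.09 (edgeR adjusted p = 0.736). Of its 15 partners in isoleucine breakdown and mitochondrial RNase P, 1 rose and 0 fell by edgeR. At an unadjusted p under 0.05, 2 were higher and 1 lower. DESeq2 called 1 higher and 0 lower, and limma voom 1 higher and 1 lower. The gene that rose by edgeR was Acadsb, an acyl-CoA dehydrogenase that acts ahead of Hsd17b10 in isoleucine breakdown. It went from 168 ± 22.3 to 433 ± 101 CPM (edgeR, log2 1.36 ± 0.18, adjusted p = 0.000791), with no overlap between the groups.

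Changes were also compared between members, as the log2 ratio of the counts of a pair within each library, which needs no scaling between libraries. Of 21 pairs of the 7 tested members, 0 differed between ORX and INTACT after adjustment over the pairs (exact permutation test over samples, two-sided, lowest adjusted p = 0.0758), and 4 had an unadjusted p under 0.05. All 4 were ratios of Hsd17b1 to an abundant member. The ratio to Hsd17b12 was 1.53 ± 0.46 (SE, log2) higher in ORX (exact permutation p = 0.0108, adjusted 0.0758) and the ratio to Hsd17b4 was 1.21 ± 0.29 higher (exact permutation p = 0.00866, adjusted 0.0758). Those to Hsd17b10 and Hsd17b11 were 1.14 ± 0.34 and 1.03 ± 0.26 higher (exact permutation p = 0.0152 and 0.00866, adjusted 0.0795 and 0.0758). In 13 of 14 alternatives none of these 4 passed after adjustment (exact permutation, adjusted p up to 0.4). The exception was the setting without ORX 3, the ORX library with the lowest Hsd17b1, where all 4 passed (adjusted p = 0.0417). Hsd17b1 and Hsd17b3, the low reductive members, did not separate from each other in change (difference -0.24 ± 0.85; exact permutation p = 0.768), an interval too wide to call them alike.

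Relatives outside the 9 genes included both directions. Hsd17b7, an enzyme of cholesterol synthesis that also reduces estrone, rose from 13.6 ± 3.33 to 26.2 ± 9.10 CPM (edgeR, log2 0.95 ± 0.26, adjusted p = 0.0498), with ORX 3 and ORX 6 inside the INTACT range. H2-Ke6, the symbol under which the table holds Hsd17b8, was at 143 ± 9.45 and 176 ± 39.4 CPM (edgeR, log2 0.30 ± 0.15, adjusted p = 0.273), and it shares 86.4% of its exon bases with the predicted gene Gm20427. Hsdl2, a peroxisomal dehydrogenase-like gene, fell from 159 ± 27.1 to 97.4 ± 9.83 CPM without overlap (log2 -0.71 ± 0.14; edgeR adjusted p = 0.00956). Of the 6 tested relatives 1 rose, 1 fell and 4 did not pass by edgeR. The counts were 2 higher and 1 lower by DESeq2, by limma voom and at an unadjusted p under 0.05. Akr1c6, also in this list, did not pass the filter on low counts. It had 1 count in INTACT and 56 in ORX (0.0146 ± 0.0326 and 0.703 ± 1.04 CPM).

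The list of other steroid enzymes held changes in both directions. It also holds Star, Por, Cyb5 and H6pd, which do not themselves convert steroids and were not called by edgeR. Of 25 genes tested with edgeR, 9 rose, 3 fell and 13 did not pass, with a median log2 fold change of 0.31. The counts were 12 higher and 4 lower by DESeq2, 10 and 5 by limma voom, and 12 and 6 at an unadjusted p under 0.05. The smallest p-values belonged to Rdh1 and Rdh9, retinol dehydrogenases of the same short-chain group as Hsd17b6, and to Akr1d1 and Akr1c18, reductases of other steroid positions, of which Akr1c18 is also an X-zone marker. Rdh1 rose from 5.36 ± 2.07 to 109 ± 33.1 CPM (edgeR, log2 4.36 ± 0.32, adjusted p = 5.93e-06) and Rdh9 from 4.49 ± 1.21 to 58.7 ± 27.4 CPM (edgeR, log2 3.71 ± 0.34, adjusted p = 4.1e-05), both without overlap between the groups.

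Rdh1 and Rdh9 lie on chromosome 10 at 127759721 to 127768297 and 127776386 to 127792697, 223 and 198 kilobases from Hsd17b6. Rdh16, between them and Hsd17b6 at a distance of 144 kilobases, was at 1.22 ± 1.03 and 0.539 ± 0.288 CPM (edgeR, log2 -1.20 ± 0.61, adjusted p = 0.258). Of the 6 genes tested within 100 kilobases of Hsd17b6, 0 were called by edgeR, DESeq2 or limma voom and 0 had an unadjusted p under 0.05, and their log2 fold changes lay between -0.36 and 0.31. As Rdh1, Rdh9 and Rdh16 are alike in sequence, reads may have been divided among them in the counting, and their values are uncertain to that extent.

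Steps on either side of the family differed in direction and size. Hsd3b1, which supplies the keto steroids that the reductive members use, rose by 1.14 ± 0.21 on the log2 scale (edgeR adjusted p = 0.0072), and Srd5a1, which reduces testosterone further, went from 12.9 ± 1.16 to 36.5 ± 9.71 CPM (edgeR, adjusted p = 0.000533). Cyp17a1 rose from 6.09 ± 5.64 to 53.2 ± 48.3 CPM (edgeR adjusted p = 0.0430), a call lost in 13 of 20 other settings (edgeR adjusted p up to 0.247). The 3 that fell were Hsd3b6, a glomerulosa form of Hsd3b1 (107 ± 78.2 to 25.8 ± 16.6 CPM; adjusted p = 0.0260 by edgeR), Srd5a2 (619 ± 161 to 333 ± 102 CPM; adjusted p = 0.0477 by edgeR) and Dhrs9 (2.37 ± 1.99 to 0.405 ± 0.262 CPM; adjusted p = 0.0251 by edgeR). Cyp19a1, aromatase, which makes the estrone that Hsd17b1 reduces, had 1 count in INTACT and 13 in ORX, of which ORX 6 held 5, ORX 5 4, ORX 4 3 and ORX 1 1.

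The genes whose library-to-library pattern was most like that of Hsd17b1, by Pearson's r of deviations from the group means over the 11 libraries, were Dbndd1 (r = 0.914), Slc6a13 (r = 0.911) and Fam123c (r = 0.904). None of the 3 passed the test between the groups (edgeR, log2 1.42, -0.07 and 0.22, adjusted p = 0.161, 0.965 and 0.742). The points share library depth, all 3 genes are as low as Hsd17b1 or lower, and the values are a description only.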

How the data were processed

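The deposited values are unnormalized read counts for each gene symbol. Per the submitters' processing notes, the tools were bcl2fastq 1.8.4 and Subread 1.5.1 and the build was mm10, each without a role. Not given in the sources used here are the annotation, the strand setting and the treatment of reads matching several genes, and the labels' protocols name both a stranded and an unstranded TruSeq guide. The deposited table stands 2 times in its file, identically, and the first copy was used. Genes were kept by edgeR's filterByExpr (minimum count 10, minimum total 15), which left 14139 of 23337 genes and 99.9% of the counts. Library sizes were adjusted with TMM factors, and edgeR 4.0.16 in R 4.3.3 (glmQLFit, glmQLFTest) gave a two-sided p for ORX against INTACT with no covariate, adjusted by Benjamini-Hochberg over all tested genes. The F statistic of each gene and its log2 fold change gave the standard error. Ratios of pairs had 0.5 added to each count and were tested with an exact permutation test (462 arrangements, smallest possible p 0.00216). The fit was tested on simulated counts of 14139 genes. It recovered 4.48% of 1.5-fold, 47.8% of 2-fold and 97% of 4-fold changes, with 1.98% false calls. A gene that did not pass may therefore still have changed by 2-fold or less.

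Alternatives were DESeq2 1.42.0, voom of limma 3.58.1 with sample weights, RLE scaling, no filter, at least 1 CPM in at least 5 libraries, the sample number as a block, a transcript length offset, a threshold of 0.01 and libraries left out. No pair of libraries of a group was alike within sampling noise (chi-square per degree of freedom 25.5 or more). Members, lists and tests were chosen with earlier results of these data known. Named were all members and, of each pathway list, the 4 called genes of lowest p at most. Hsd17b7, Hsd17b8, Hsd17b13, Srd5a1, Cyp17a1, Cyp19a1 and Hsd3b1 were named whatever their values. Outside this rule, Naglu, Alb, Rdh16, Akr1c6, Hsd3b6, Srd5a2 and Dhrs9 were chosen after their values were seen. Akr1c13 and Srd5a3, called higher in the list of other steroid enzymes, were not described. Genes most like a member were the 3 with the highest r among those with a mean of at least 1 CPM. The lists were other steroid enzymes, relatives of the family, fatty acid elongation, peroxisomal beta-oxidation, isoleucine breakdown with RNase P, lipid droplets and markers of 12 cell types; 170 of 171 symbols were in the table, 10 under an older symbol. Intervals and limits at 0 counts cover counting error only.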

Additional observations from a re-analysis of the deposited data

Results flagged for a closer look

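Of 17 groups of values of the 9 genes tested for a library far from the others, 2 held one. For normally distributed values, chance alone gives about 1 in 20 such groups. Hsd17b10 in INTACT 2 was at 81.1 CPM, with a gap to the next library of 0.763 of the group's range. Hsd17b6 in INTACT 2 was at 0.085 CPM, which is a single read where the other INTACT libraries had 0. With all others at 0 the gap fills the range whatever the count, so this flag cannot be set against that rate.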

How the results depend on the processing

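The count of 1 member higher in ORX became 0 with the sample number as a replicate block and with the transcript length offset. It also became 0 at an edgeR threshold of 0.01 and without INTACT 1, ORX 4 and ORX 6 together. With 1 library left out it was 0 to 1. It stayed at 1 with DESeq2, limma voom, RLE scaling, no filter, at least 1 CPM in 5 libraries, and without both INTACT 3 and ORX 6. The count of members lower stayed at 0 in all settings run. With the block, Hsd17b1 was at log2 1.22 (edgeR adjusted p = 0.140), and the calls over all genes went from 428 higher and 450 lower to 228 and 188. The sample numbers did not pair the libraries (correlations of same-numbered deviations -0.276 to 0.182; 1 of 5 INTACT libraries, INTACT 5, was most like its own number). Hsd17b4, near 0, changed sign with no filter (-0.0053), the length offset (-0.058) and 1 library left out (-0.089 to 0.088), Hsd17b10 with limma voom (-0.023) and the length offset (-0.089), and Hsd17b14 with 1 library left out (-0.23 to 0.40). Hsd17b14, at -0.01, was at -0.94 with limma voom and -0.38 with the block, and it did not pass the filter on low counts, so that it had no value, without ORX 3, without ORX 6, at 1 CPM in 5 libraries and in both fits that left out several libraries. The cause was not tested. Hsd17b3, Hsd17b11 and Hsd17b12 kept their sign and did not pass in any of 20 alternatives. The count of pairs, 0, was 0 to 4 with 1 library left out. Among the list counts, other steroid enzymes ranged from 6 to 12 higher (9) and 0 to 5 lower (3), relatives from 0 to 2 higher (1) and 0 to 1 lower (1), elongation from 0 to 2 lower (0), peroxisomal genes from 0 to 1 higher (0) and 0 to 2 lower (0), isoleucine breakdown from 0 to 1 lower (0) and droplets from 0 to 4 lower (1). Calls were lost in 12 of 20 alternatives for Hsd17b7, 10 for Srd5a2, 7 for Hsd3b6 and 4 for Fitm2, and in 5 of 18 for Dhrs9. Single counts limit Hsd17b2 and Hsd17b6.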
